A study of Mus musculus with 22 samples.

Results

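The transcripts of 33 genes of fatty acid oxidation were followed in the kidney cortex of Pt-CrAT mice, in which the carnitine acetyltransferase gene Crat is targeted in proximal tubular cells, and of fl/fl mice. The genes were taken by symbol from the 16556 genes of the deposited table. Of the 33, 21 encode enzymes grouped here as mitochondrial and 12 encode enzymes, transporters or membrane proteins grouped as peroxisomal. Some members, Acad11 and Eci2 among them, have dual or debated locations, and their class follows the order of the gene list. All 33 passed the filter on low counts, and with the other genes that passed they made up the 15064 genes tested. The 22 animals were male C57BL/6J mice. Pt-CrAT animals carry a Cre recombinase under the Ggt promoter that acts on Crat, while fl/fl animals carry no Cre. This promoter is active in proximal tubular cells, so bulk cortex of a Pt-CrAT animal still holds Crat transcripts of other cells. There were 3 Pt-CrAT and 3 fl/fl animals of 12 months with the word LFD in their titles, 3 and 3 of 15 months on chow, and 5 and 5 of 24 months on chow. The meaning of LFD is not given, and it goes with age, so age was compared only between 15 and 24 months. In a bulk sample, fewer cells of a type and less RNA per cell cannot be told apart.

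Beta-oxidation shortens an activated fatty acid by repeated rounds of dehydrogenation, hydration, a further dehydrogenation and thiolytic cleavage. Mitochondria do this for short-, medium- and long-chain acyl-CoA and pass the electrons through the electron transfer flavoprotein to the respiratory chain. Peroxisomes shorten very long-chain and branched-chain acyl-CoA with oxidases that make hydrogen peroxide, and hand on shorter products. The proximal tubule relies on fatty acids as its main fuel, and carnitine acetyltransferase, the product of Crat, transfers the acetyl units that this pathway releases onto carnitine.

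In the results below the paired subunits Etfb and Etfa moved in opposite directions, and Hadha and Hadhb differed in sign without passing the test, so the DNA in front of these genes is shown first. Hadha and Hadhb, the alpha and beta subunits of the trifunctional protein, lie head to head on chromosome 5. Between their RefSeq starts (30154980 and 30155253) lie 272 bases. By these starts the window in front of Hadhb lies in front of Hadha too, read from the other strand. The GENCODE M21 annotation instead starts Hadha at 30155162, inside this window, and Hadhb at 30155248. Etfa and Etfb, the 2 subunits of the electron transfer flavoprotein, lie on chromosomes 9 and 7. Each sequence below is the 250 bases before a start, 5′ to 3′ on the strand of the gene, from RefSeq on GRCm38.p6. The windows are chr5:30155003-30155252 on the plus strand, chr7:43443822-43444071 on the plus strand and chr9:55512244-55512493 on the minus strand. Capitals mark GGGCGG and CCAAT, and CCAAT reads ATTGG where it lies on the other strand.
Hadhb: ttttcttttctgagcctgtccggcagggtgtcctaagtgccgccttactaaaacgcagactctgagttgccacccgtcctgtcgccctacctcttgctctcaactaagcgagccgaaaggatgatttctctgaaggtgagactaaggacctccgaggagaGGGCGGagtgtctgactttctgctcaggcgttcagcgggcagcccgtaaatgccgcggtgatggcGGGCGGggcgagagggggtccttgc
Etfb: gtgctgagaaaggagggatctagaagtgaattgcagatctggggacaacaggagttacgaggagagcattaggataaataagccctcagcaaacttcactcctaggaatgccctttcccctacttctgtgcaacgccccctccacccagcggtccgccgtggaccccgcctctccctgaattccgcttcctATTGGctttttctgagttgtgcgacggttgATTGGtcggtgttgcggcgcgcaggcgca
Etfa: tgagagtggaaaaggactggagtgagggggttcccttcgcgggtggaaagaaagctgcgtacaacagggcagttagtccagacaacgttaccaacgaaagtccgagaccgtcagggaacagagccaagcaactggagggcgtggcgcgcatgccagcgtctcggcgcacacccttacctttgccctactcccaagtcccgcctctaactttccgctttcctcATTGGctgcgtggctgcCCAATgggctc

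The Etfa and Etfb windows each held 2 CCAAT matches and no GGGCGG, and the window in front of Hadhb held 2 GGGCGG matches and no CCAAT. Of the 33 genes, 29 were found in the promoter table, with 33 windows among them. On both strands of the same 250 bases, CCAAT was present in 14 of these 33 windows, against 33.8% of all 32851 windows, and GGGCGG in 16 of 33, against 32.7%. AGGTCA, a half-site read by many nuclear receptors, was in 5 of 33 (Acadm, Acadvl, Acot4, Echs1 and Scp2), against 14% of all windows. The direct repeat of AGGTCA with a single base between, known as DR1, overlaps the AGGTCA matches by construction and was in 0 of 33 and in 0.0335% of all windows. These matches describe the letters in the windows only.

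Libraries held 12175804 to 17447367 counts, apart from CrAT12MLFD345 with 53157575. Single libraries carry their sample titles below: those beginning CrAT are Pt-CrAT animals, those beginning Wt are fl/fl animals. Levels are CPM on TMM-scaled library sizes. P-values measure the spread between these animals, whose litters and handling days are not labelled. Crat itself (ENSMUSG00000026853; GRCm38 chromosome 2, 30400471 to 30415813) stood at 36.2 ± 4.41 CPM in Pt-CrAT and 74.7 ± 24.4 CPM in fl/fl libraries at 24 months (SD, n = 5 each; log2 fold change -1.04, adjusted p = 0.177), with no overlap. At 12 months it stood at 62.5 ± 19.4 CPM in Pt-CrAT and 78.9 ± 22.5 CPM in fl/fl libraries (SD, n = 3 each; log2 fold change -0.33, adjusted p = 0.41). Among the 15-month libraries Crat ran against the genotype labels. It stood at 63.1, 72.6 and 71.8 CPM in the libraries labelled Pt-CrAT and 41.5, 34.3 and 60.0 CPM in those labelled fl/fl. The groups did not overlap, as for 24.3% of all genes at this age. No gene passed edgeR's test there (smallest adjusted p = 0.581). The labels do not say which part of Crat is deleted, and 3′ tags outside that part would not check it.

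At 12 months the oxidation genes split. In Pt-CrAT cortex 5 of the 33 rose and 8 fell, together 39.4% of the members, against 16.4% of all genes tested. Those that rose were 8.41% and those that fell 7.95% of all genes. The short-chain acyl-CoA dehydrogenase Acads, the mitochondrial thiolase Acaa2, the flavoprotein subunit Etfb and the peroxisomal Acot8 and Acaa1a rose, with log2 fold changes of 0.79 to 1.10. The other flavoprotein subunit Etfa, the dehydrogenases Hadh, Acadm, Acadl, Acad11 and Acad10, and the peroxisomal Hsd17b4 and Acot4 fell, with log2 fold changes of -1.72 to -0.41. The groups did not overlap for 5 members above and 11 below, against 30.1% of all genes (16.3% above and 13.8% below). Among the 21 mitochondrial genes 3 rose and 6 fell, with a median log2 fold change of -0.33, and among the 12 peroxisomal genes 2 rose and 2 fell, with a median of -0.09. The median over all genes tested was 0.00. Without CrAT12MLFD328 no member passed in either direction, and without Wt12MLFD326 or without CrAT12MLFD337 none of the 8 that fell passed. With only the 6 libraries of this age in the fit all 13 calls were lost (adjusted p 0.158 to 0.177) at folds of about the same size, such as 1.08 for Acads and -1.75 for Etfa, and 1 of 13759 genes passed.

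**Figure D1:**
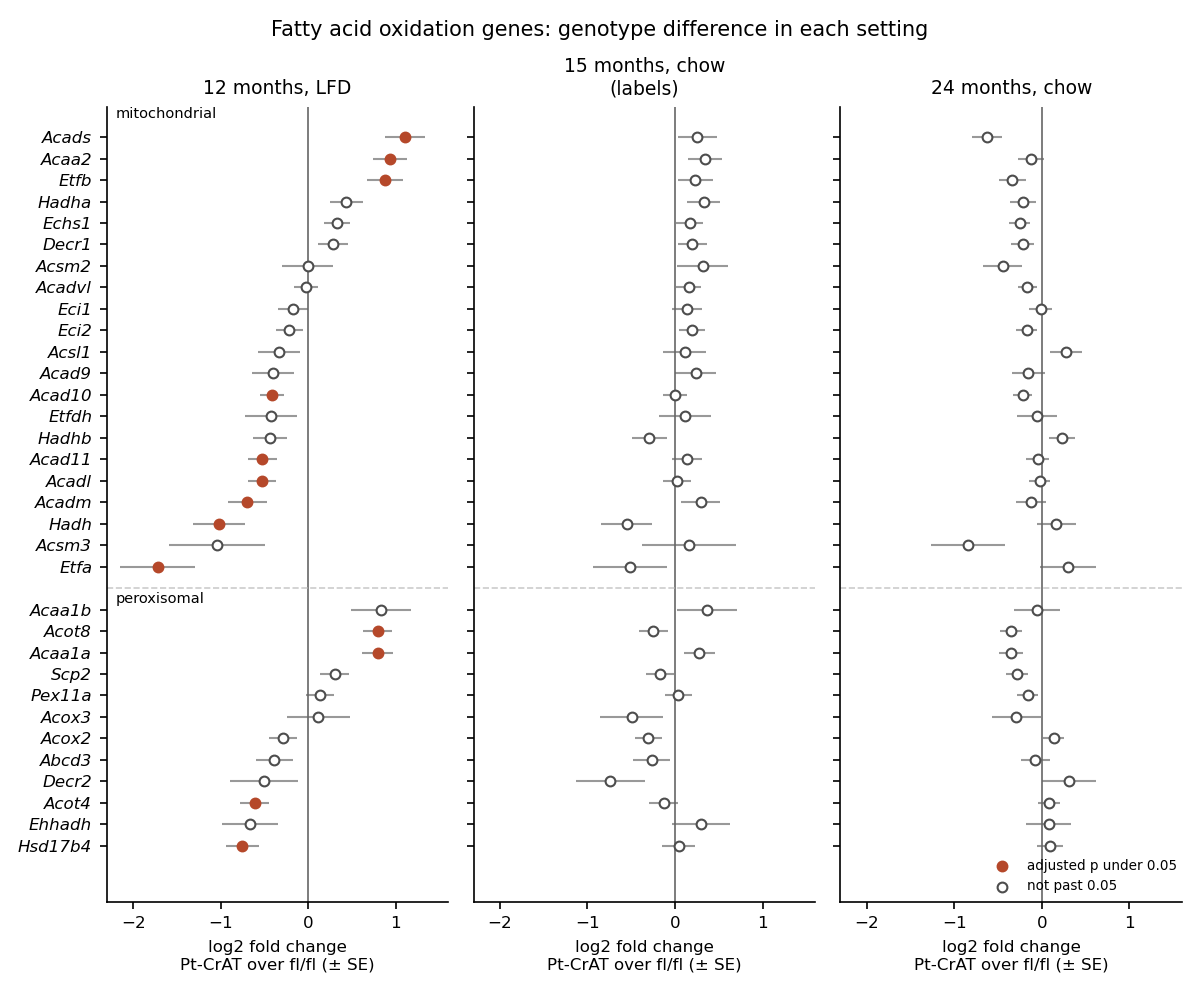
Log2 fold change of Pt-CrAT over fl/fl (x axis, bars ± SE) for the 33 genes in the 3 settings, mitochondrial above and peroxisomal below the dashed line. Filled points passed an adjusted p of 0.05 (edgeR): 13 at 12 months and 0 at 15 and 24 months, where the points lie closer to 0.

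The acyl-CoA dehydrogenases, which open each mitochondrial round, did not move as a family at 12 months. Values are in the order CrAT12MLFD328, CrAT12MLFD337, CrAT12MLFD345 and Wt12MLFD326, Wt12MLFD327, Wt12MLFD368. Acads (ENSMUSG00000029545; chromosome 5, 115110299 to 115119346) was at 1796, 1474 and 1210 CPM in Pt-CrAT, against 530, 747 and 809 CPM in fl/fl. Every Pt-CrAT library lay above every fl/fl library (log2 fold change 1.10, SE 0.23, adjusted p = 0.00724). The medium-chain enzyme Acadm (ENSMUSG00000062908; chromosome 3, 153922357 to 153944632) was at 190, 145.8 and 195 CPM in Pt-CrAT and 421, 218.5 and 221 CPM in fl/fl. Its groups did not overlap, and Wt12MLFD326 stood far above the other fl/fl libraries (log2 fold change -0.70, SE 0.22, adjusted p = 0.0353). Without that library the value was -0.31 (adjusted p = 0.367). The long-chain enzyme Acadl was at 263, 253 and 365.5 CPM in Pt-CrAT and at 432, 418 and 422 CPM in fl/fl, the fl/fl libraries lying close together (log2 fold change -0.53, SE 0.16, adjusted p = 0.0293). Acad11 (-0.52, adjusted p = 0.0389) and Acad10 (-0.41, adjusted p = 0.0396), less studied members of the family, also fell. The very long-chain enzyme Acadvl had a log2 fold change of -0.03 (SE 0.14), and Acad9, which also serves in the assembly of complex I, one of -0.40 (SE 0.24, adjusted p = 0.242).

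**Figure D2:**
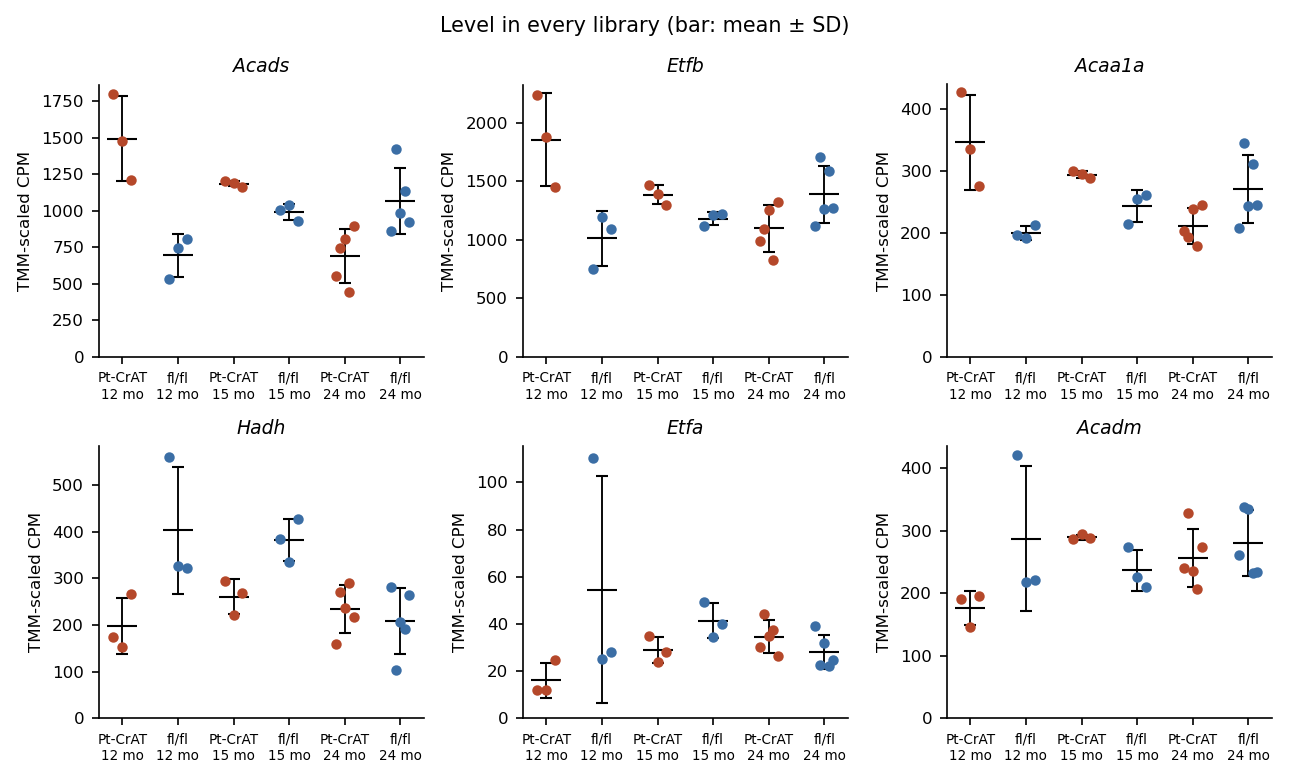
TMM-scaled CPM (y axis, from 0) of 6 oxidation genes in every library of the 6 groups, red for Pt-CrAT and blue for fl/fl, with mean ± SD. At 12 months Acads, Etfb and Acaa1a lie higher in Pt-CrAT, and Hadh, Etfa and Acadm lie lower, with Wt12MLFD326 the highest fl/fl library in each of these 3.

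The later steps of the mitochondrial round split in the same setting. Hadh, the 3-hydroxyacyl-CoA dehydrogenase for short and medium chains (ENSMUSG00000027984; chromosome 3, 131233419 to 131272101), was at 175, 153 and 266 CPM in Pt-CrAT and at 561, 327.3 and 321.5 CPM in fl/fl. All Pt-CrAT libraries were lower, and Wt12MLFD326 was again the highest (log2 fold change -1.02, SE 0.30, adjusted p = 0.0259). Acaa2, which cleaves the acyl chain in the last step, was at 388, 332 and 250 CPM in Pt-CrAT and 135.2, 196 and 176.5 CPM in fl/fl, with no overlap (log2 fold change 0.93, SE 0.19, adjusted p = 0.00745). The hydratase Echs1 (0.33, adjusted p = 0.124), the dienoyl-CoA reductase Decr1 (0.28, adjusted p = 0.244) and the isomerases Eci1 (-0.17, adjusted p = 0.517) and Eci2 (-0.22, adjusted p = 0.327) did not pass. The acyl-CoA synthetases that activate fatty acids did not pass either: Acsl1 had -0.33 (adjusted p = 0.348), Acsm3 -1.04 (adjusted p = 0.185) and Acsm2 was close to 0 (adjusted p = 0.994). Acsm2 lies in a cluster of related genes, as do Acaa1a with Acaa1b and Acot4 with other thioesterases, and counting could split their reads.

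The flavoprotein's subunits moved in opposite directions at 12 months. The electron transfer flavoprotein takes electrons from the acyl-CoA dehydrogenases and is built of the products of Etfa and Etfb. Etfb (ENSMUSG00000004610; chromosome 7, 43444083 to 43457800) was at 2239, 1878 and 1447 CPM in Pt-CrAT and 747, 1197 and 1090 CPM in fl/fl, with no overlap (log2 fold change 0.87, SE 0.20, adjusted p = 0.0104). Etfa (ENSMUSG00000032314; chromosome 9, 55454508 to 55512243) was at 12.05, 11.8 and 24.8 CPM in Pt-CrAT and at 110, 25.1 and 28.3 CPM in fl/fl. Etfa fell by 1.72 on the log2 scale (SE 0.43, adjusted p = 0.016), but the highest Pt-CrAT and the lowest fl/fl library nearly touched, and without Wt12MLFD326 the value was -0.68 (adjusted p = 0.184). Etfdh, which passes the electrons on to ubiquinone, had -0.43 (SE 0.30, adjusted p = 0.327).

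The ratio of Etfb to Etfa was 186, 159 and 58.4 in Pt-CrAT libraries and 6.78, 47.7 and 38.5 in fl/fl libraries at 12 months. All Pt-CrAT ratios were higher. Across the 16 libraries of 15 and 24 months the ratio ran from 22.1 to 75.3. Hadha had a log2 fold change of 0.43 (SE 0.19, adjusted p = 0.11) and Hadhb of -0.44 (SE 0.20, adjusted p = 0.119), neither past the threshold. Their RefSeq starts flank the Hadhb window printed above. Their ratio was 14.02, 11.9 and 7.64 in Pt-CrAT libraries and 2.78, 8.95 and 7.87 in fl/fl libraries, which overlapped. Such ratios compare libraries and are no measure of how much of each subunit is present.

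**Figure D3:**
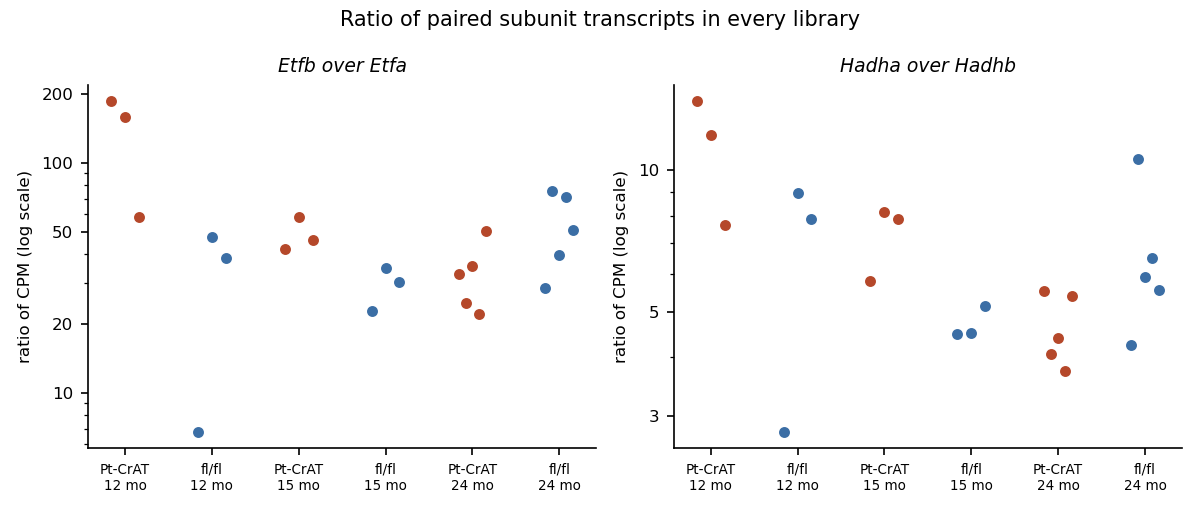
Ratio of Etfb to Etfa (left) and of Hadha to Hadhb (right) in every library of the 6 groups, on log y axes, red for Pt-CrAT and blue for fl/fl. At 12 months the Etfb to Etfa ratio runs from 58.4 to 186 in Pt-CrAT and from 6.78 to 47.7 in fl/fl, with Wt12MLFD326 lowest in both panels.

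Among the peroxisomal genes, the thioesterase Acot8 (ENSMUSG00000017307; chromosome 2, 164792765 to 164804882), which frees fatty acids from coenzyme A, was at 142, 123.6 and 106 CPM in Pt-CrAT and 69.95, 81.8 and 62.4 CPM in fl/fl. The groups were well apart (log2 fold change 0.79, SE 0.16, adjusted p = 0.00729). The thiolase Acaa1a (ENSMUSG00000036138; chromosome 9, 119339676 to 119350299) was at 427, 335 and 275 CPM in Pt-CrAT and 196, 191 and 212 CPM in fl/fl, again without overlap (log2 fold change 0.79, SE 0.18, adjusted p = 0.00927). Its near copy Acaa1b was at 2256, 2123 and 1334 CPM in Pt-CrAT and 407, 1196 and 1614 CPM in fl/fl, which overlapped (log2 fold change 0.83, SE 0.34, adjusted p = 0.0966). Hsd17b4, the D-bifunctional enzyme of the middle steps, was at 19.45, 20.05 and 24.3 CPM in Pt-CrAT and 45.8, 24.9 and 37.3 CPM in fl/fl (log2 fold change -0.75, SE 0.19, adjusted p = 0.0151). The thioesterase Acot4 was at 15.3, 18.2 and 15.9 CPM in Pt-CrAT and 25.6, 25.05 and 24.9 CPM in fl/fl, where the 3 values nearly coincide (log2 fold change -0.61, SE 0.16, adjusted p = 0.0185).

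The remaining peroxisomal members did not pass at 12 months. The oxidases Acox2 and Acox3, which act on branched chains, had log2 fold changes of -0.29 and 0.12. The other bifunctional enzyme Ehhadh had -0.67, the fatty acyl-CoA transporter Abcd3 -0.39 and the dienoyl-CoA reductase Decr2 -0.51. Scp2, a lipid carrier and thiolase, had 0.30, and Pex11a, which takes part in peroxisome proliferation, 0.13. Their adjusted p-values ran from 0.15 for Ehhadh to 0.857 for Acox3. Summed over the class, peroxisomal transcripts were at 4729, 4312 and 3865 CPM in Pt-CrAT and 2268, 3652 and 3748 CPM in fl/fl, and mitochondrial transcripts at 9948, 8428 and 7960 CPM in Pt-CrAT and 7779, 7338 and 7028 CPM in fl/fl. Both sums were higher in every Pt-CrAT library while the median member of each class was lower. The sums weigh genes by their level, and Acsm2, Etfb, Acads and Acaa1b take a large part of them. Acaa1b alone did not separate the groups, at 1334 CPM in CrAT12MLFD345 and 1614 CPM in Wt12MLFD368.

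The direction at 12 months went with the base composition of the transcript end. The GC content of the last 500 bases was 51.4 to 59.2% in the 5 that rose (median 56.2%), 32.2 to 52.4% in the 8 that fell (median 38.5%) and 27.8 to 56.4% in the other 20 (median 42.1%). Across the 33 members, Pearson's r between this GC content and the log2 fold change was 0.67 and Spearman's rho 0.66, against 0.24 and 0.27 across 15035 genes, where all points share the same 6 libraries and genes are not independent replicates. The level of GC-rich (55%) over GC-poor (35%) genes, on the log2 scale against the mean of all libraries, was 0.48, 0.54 and 0.27 in the Pt-CrAT libraries and -0.38, 0.20 and 0.19 in the fl/fl libraries. At the older ages it lay between -0.37 and 0.11. With each library corrected for GC content, r over the members was 0.48, and the 5 that rose still passed together with Scp2 (log2 fold change 0.54, adjusted p = 0.039), whose transcript end has the lowest GC content of the members. Of the 8 that fell, 5 still passed, while Acadl (-0.33, adjusted p = 0.129), Acadm (-0.50, adjusted p = 0.0852) and Acad11 (-0.37, adjusted p = 0.111) did not. With this correction 14.65% of all genes passed.

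**Figure D4:**
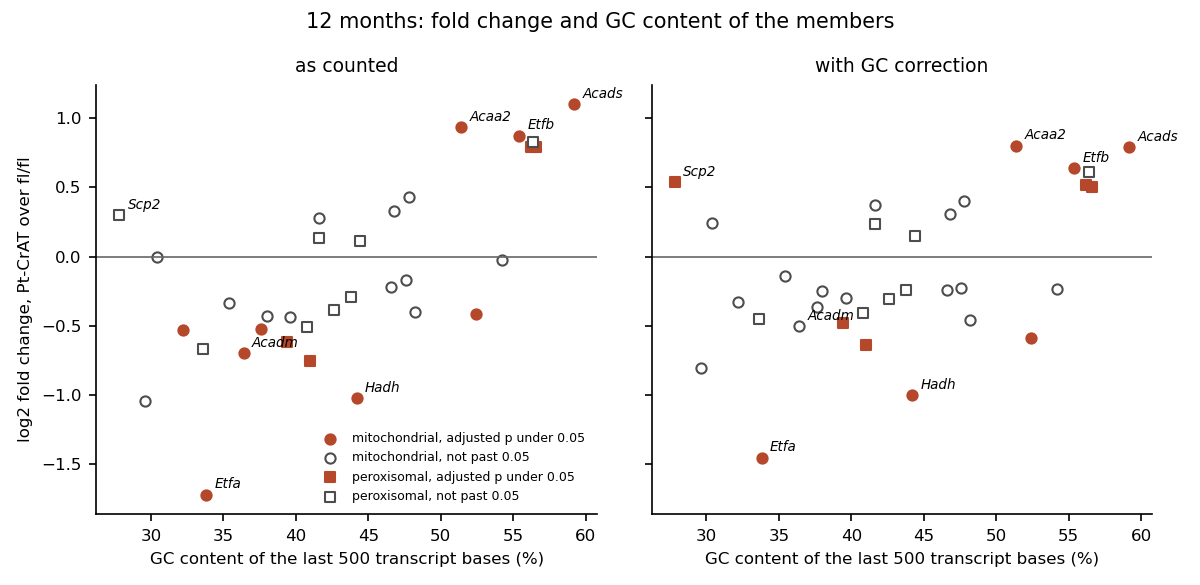
Log2 fold change of Pt-CrAT over fl/fl at 12 months (y axis) against GC content of the last 500 transcript bases (x axis, %) for the 33 genes, as counted (left) and with GC correction (right). Circles are mitochondrial and squares peroxisomal, filled past an adjusted p of 0.05: r was 0.67 as counted and 0.48 with correction.

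Individual libraries weighed on the 12-month result. Among the fl/fl libraries, Wt12MLFD326 was the highest for all 8 genes that fell and the lowest for 3 of the 5 that rose. The other fl/fl libraries still lay on the same side of every Pt-CrAT library for all 13, closely so for Etfa and Hsd17b4. Without Wt12MLFD326, Acads (0.94, adjusted p = 0.0389), Acot8 (0.78, adjusted p = 0.0312), Acaa2 (0.80, adjusted p = 0.0407) and Acaa1a (0.78, adjusted p = 0.0389) passed, while Etfb had 0.70 (adjusted p = 0.0621). Without CrAT12MLFD328 these 5 had 0.63 to 0.96, with adjusted p-values of 0.0606 to 0.0903. Over all genes, 2464 passed with all libraries, 408 without Wt12MLFD326, 391 without CrAT12MLFD337, 53 without CrAT12MLFD328 and 19 without both CrAT12MLFD328 and Wt12MLFD326. All 13 kept their direction when any of the 6 libraries was left out. Their groups do not overlap, so leaving out a single library could hardly have reversed them.

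Genes next to the pathway were described from lists by function, for a comparison in which 16.4% of all genes passed. In the carnitine shuttle, which brings acyl groups into mitochondria, 0 of 6 passed at 12 months. Of 15 other acyl-CoA enzymes of mitochondria, Acsf3 (0.71) and Mcat (0.47), both of mitochondrial fatty acid synthesis, rose. Of 15 other peroxisomal enzymes and transporters, Acbd5 (-0.61), Nudt7 (-0.55) and Slc27a2 (-0.68) fell, and of 15 peroxisome biogenesis genes the import receptor Pex5 (-1.24), Pex2 (-1.15) and Pex13 (-0.82) fell and Pex26 (0.60) rose. Of 8 regulators, the coactivator Ppargc1b (0.64) rose and the nuclear receptor Esrra (-0.93) fell.

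Markers of other cells moved in the same comparison, again beside 16.4% of all genes. Of 7 adipocyte genes tested, 6 rose, the list's median log2 fold change being 3.77, and their summed level was 353 to 881 CPM in Pt-CrAT and 133 to 276 CPM in fl/fl. The adipokine Adipoq stood at 5.75 to 28.0 CPM in Pt-CrAT and 0.32 to 0.735 CPM in fl/fl. Fat cells also oxidise fatty acids, and the part of these cells in the result was not tested. Of 9 markers of the first segments of the proximal tubule, 4 fell and 0 rose (Slc7a8, Lrp2, Gatm and Slc22a12), while their summed level was 11290 to 12190 CPM in Pt-CrAT and 11310 to 12630 CPM in fl/fl. Of 4 fibroblast markers 2 fell (Pdgfra and Col1a2), and their summed level was 22.4 to 31.0 CPM in Pt-CrAT and 30.9 to 54.4 CPM in fl/fl.

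At 15 months no member passed edgeR's test between the libraries labelled Pt-CrAT and those labelled fl/fl, and neither did any of the 15064 genes (0.0%), of which 1249 had an unadjusted p under 0.05. DESeq2 and limma-voom also called 0. Of the 33 members 23 were higher and 10 lower in the libraries labelled Pt-CrAT, with a median log2 fold change of 0.14, against 0.01 over all genes. The classes leaned apart: 18 of 21 mitochondrial genes were higher (median 0.16) and 7 of 12 peroxisomal genes lower (median -0.15), with no test of that difference. The groups did not overlap for 8 members above and 4 below, 12 of 33, against 24.3% of all genes. The 4 members with the smallest p were Acox2 (-0.30, SE 0.16), Hadh (-0.55, SE 0.29), Decr2 (-0.74, SE 0.39) and Acaa2 (0.34, SE 0.19), each with an adjusted p of 0.581. Hadh was at 294, 221 and 268 CPM in the libraries labelled Pt-CrAT and at 385, 336 and 426.5 CPM in those labelled fl/fl, and the groups did not overlap.

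At 24 months, where Crat was lowest in Pt-CrAT cortex, no oxidation gene passed edgeR's test, and none of all genes did (0.0%), of which 1409 had an unadjusted p under 0.05. The members lay slightly lower in Pt-CrAT: 24 of 33 had a negative log2 fold change, with a median of -0.13 against 0.02 over all genes. Of the mitochondrial genes 17 of 21 were lower (median -0.15), and of the peroxisomal genes 7 of 12 (median -0.07). No member had groups that did not overlap, against 1.53% of all genes (0.737% above and 0.797% below). The smallest p was that of Acads, at 442 to 897 CPM with a median of 744 CPM in Pt-CrAT and 860 to 1423 CPM with a median of 983 CPM in fl/fl libraries. The ranges overlapped at their ends (log2 fold change -0.63, SE 0.17, adjusted p = 0.402). DESeq2 called 8 of all genes at this age, and limma-voom 0. Among the 8 was Acads (adjusted p = 0.0452 by DESeq2). Next came Acot8 (-0.35, SE 0.13, adjusted p = 0.461), Acaa1a (-0.36, SE 0.14, adjusted p = 0.468) and Scp2 (-0.28, SE 0.12, adjusted p = 0.505).

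Mitochondrial transcripts summed to 4828, 6421, 6687, 4369 and 6757 CPM in CrAT24Mchow123, CrAT24Mchow124, CrAT24Mchow135, CrAT24Mchow136 and CrAT24Mchow146, and to 6809 to 7787 CPM in the 5 fl/fl libraries. All 5 Pt-CrAT sums lay below all fl/fl sums, the nearest of them narrowly, and CrAT24Mchow123 and CrAT24Mchow136 were lowest. These sums weigh genes by their level. With the mitochondrial members weighed equally, as mean log2 deviation from each gene's mean over all libraries, the groups overlapped. The range was -0.380 to -0.056 in Pt-CrAT and -0.121 to 0.059 in fl/fl. Acsm2, a medium-chain acyl-CoA synthetase of the proximal tubule and the member with the highest mean CPM over all libraries, was at 1064, 2150, 2368, 721 and 1979 CPM in these Pt-CrAT libraries, against 2095 to 2480 CPM in fl/fl. Its relative Acsm3 was at 8.19, 45.0, 49.8, 7.61 and 39.9 CPM in Pt-CrAT and 37.3 to 82.5 CPM in fl/fl. In these same libraries, CrAT24Mchow123 and CrAT24Mchow136, the markers of the first proximal tubule segments summed to 5624 and 5675 CPM, against 7613 to 8143 CPM in the other Pt-CrAT and 7467 to 9010 CPM in the fl/fl libraries, and the part of this in the members' levels was not tested.

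Whether the genotype difference changed among the 3 settings was tested with 2 degrees of freedom. Age and the LFD label cannot be told apart in this test, and it takes the 15-month genotypes from labels that Crat runs against. It passed for 5 of the 33 members (15.2%), against 5.07% of all genes. These were Acads, Acot8 and Acaa1a (adjusted p = 0.0200 each), Etfb (adjusted p = 0.0298) and Acaa2 (adjusted p = 0.0381). They are the same 5 that rose at 12 months, whose values enter this test. In order of the settings, Acads had log2 fold changes of 1.10, 0.26 and -0.63, Acot8 of 0.79, -0.25 and -0.35, and Acaa1a of 0.79, 0.28 and -0.36. Etfb had 0.87, 0.23 and -0.34, and Acaa2 had 0.93, 0.34 and -0.12. Without CrAT12MLFD328 or without CrAT12MLFD337 0 members passed, without CrAT24Mchow123 and CrAT24Mchow136 2 passed, and DESeq2 called 10. With the GC correction 4 passed, Scp2 (adjusted p = 0.0441) among them, while Acaa1a (adjusted p = 0.0535) and Acaa2 (adjusted p = 0.0525) did not.

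Age was compared at 24 over 15 months, both on chow. In fl/fl cortex 0 of 33 members passed, against 1.3% of all genes (0.823% higher and 0.478% lower), and 21 of 33 were lower at 24 months, with a median of -0.11 against 0.02 over all genes. The groups did not overlap for 2 members above and 5 below, against 17.0% of all genes (8.7% above and 8.26% below). Hadh came closest: it was at 102.5 to 282.5 CPM, with a median of 207 CPM, at 24 months and at 385, 336 and 426.5 CPM at 15 months. Every 24-month library was lower (log2 fold change -0.87, SE 0.26, adjusted p = 0.0774; adjusted p = 0.0287 by DESeq2). Of the 8 fits with a single library left out, Hadh passed in 1, without Wt24Mchow145 (-1.01, adjusted p = 0.0364). There 5.04% of all genes passed. Without Wt15Mchow227 it had -0.78 (adjusted p = 0.2865). Of 6 other alternatives only DESeq2 called it, beside 4.84% of all genes. Acad9 (-0.47, SE 0.21, adjusted p = 0.201), Decr2 (-0.76, SE 0.35, adjusted p = 0.209) and Abcd3 (-0.40, SE 0.19, adjusted p = 0.215) followed. The 15-month libraries are called fl/fl by their labels.

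In the Pt-CrAT libraries, named at 15 months by labels that Crat goes against, 6 of 33 members fell at 24 over 15 months and 0 rose. This was 18.2% of the members, against 11.3% of all genes (5.71% lower and 5.61% higher). All 6 are grouped here as mitochondrial (6 of 21), Eci2 by list order only, and 0 of 12 peroxisomal genes passed. This difference between classes was not tested. Over the members 26 of 33 were lower at 24 months, with a median of -0.26, against 0.04 over all genes. The groups did not overlap for 12 members, all of them lower at 24 months, against 21.8% of all genes (11.3% below and 10.5% above).

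Acadvl, which starts the oxidation of the longest chains that mitochondria accept (ENSMUSG00000018574; chromosome 11, 70010183 to 70015411), was at 189, 222, 220, 191 and 262 CPM at 24 months and 278, 322 and 339.5 CPM at 15 months. The groups did not overlap (log2 fold change -0.53, SE 0.12, adjusted p = 0.00881). Eci2, an isomerase for unsaturated acyl-CoA, was at 54.2, 71.7, 77.25, 92.7 and 87.0 CPM at 24 months and 99.6, 122 and 117 CPM at 15 months (-0.56, SE 0.13, adjusted p = 0.0106). Acad9 was at 9.60 to 15.2 CPM at 24 months and 15.6, 24.3 and 29.4 CPM at 15 months, where CrAT15Mchow183 barely cleared the older group (-0.86, SE 0.21, adjusted p = 0.012). Acads was at 554, 744, 808, 442 and 897 CPM at 24 months and 1202, 1191 and 1164 CPM at 15 months, the older group spread widely below a tight younger one (-0.78, SE 0.20, adjusted p = 0.014).

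Acsm2 (ENSMUSG00000030945; chromosome 7, 119554340 to 119600690) was at 721 to 2368 CPM at 24 months and 2815, 3543 and 3683 CPM at 15 months (-1.01, SE 0.25, adjusted p = 0.0139). Acad10 was at 15.3 to 20.7 CPM at 24 months and 21.45, 25.5 and 27.8 CPM at 15 months (-0.45, SE 0.12, adjusted p = 0.0192). Acad10 did not pass with the GC correction (adjusted p = 0.0834) or with only the groups compared in the fit (adjusted p = 0.0726), where Acsm2 did not pass either (adjusted p = 0.0873). Just outside the threshold were Acaa1a (-0.47, SE 0.16, adjusted p = 0.0503), Hadha (-0.48, SE 0.17, adjusted p = 0.0643) and Acsm3 (-1.35, SE 0.47, adjusted p = 0.07), and, in the other direction, Acsl1 (0.62, SE 0.22, adjusted p = 0.0725). Without CrAT24Mchow123 and CrAT24Mchow136, of the 6 only Eci2 (-0.53, adjusted p = 0.0243) and Acsm2 (-0.64, adjusted p = 0.0448) passed. Without CrAT15Mchow185 or without CrAT15Mchow204 none of the 6 passed, and the values ranged from -0.35 to -0.97.

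**Figure D5:**
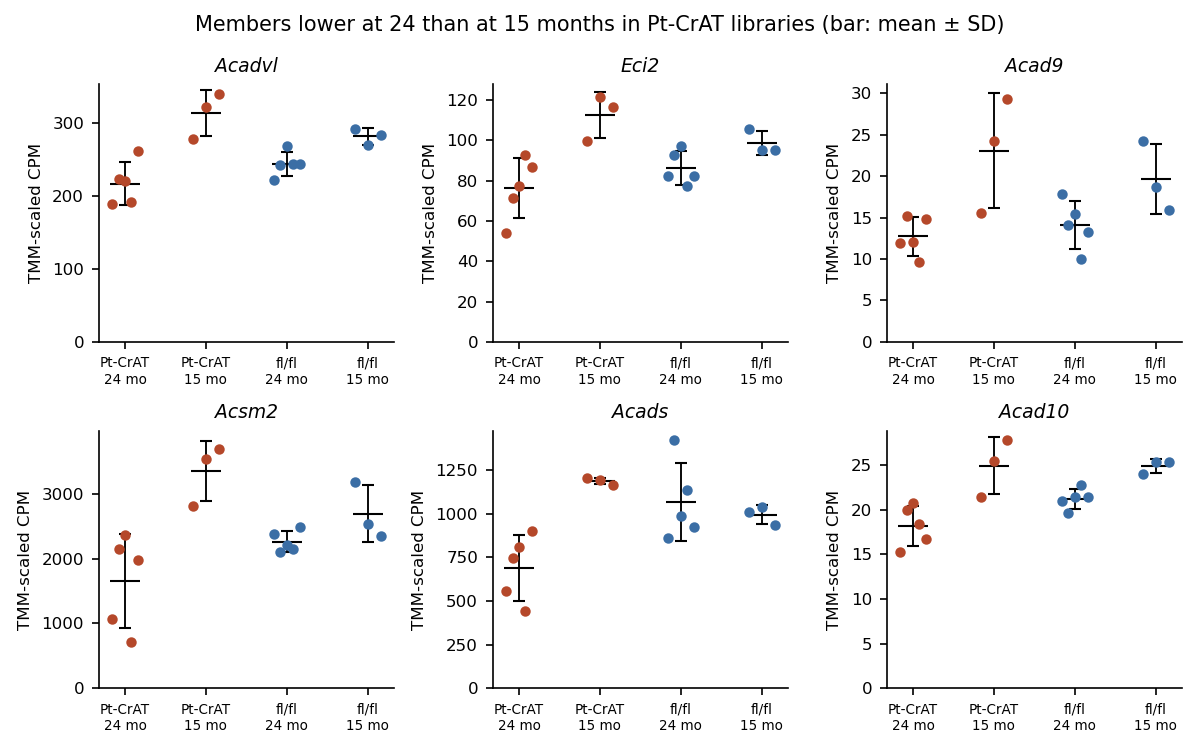
TMM-scaled CPM (y axis, from 0) of the 6 genes that fell at 24 against 15 months in Pt-CrAT libraries, for Pt-CrAT (red) and fl/fl (blue) animals of both ages, with mean ± SD. In red, every 24-month point lies below every 15-month point. In blue, Acadvl and Acad10 also lie wholly lower at 24 months, and Acads, Eci2, Acad9 and Acsm2 overlap.

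Companion genes of the pathway also passed in the same comparison, in which 11.3% of all genes passed. Most of those named here were lower at 24 months. In the carnitine shuttle Cpt1a (-0.72, adjusted p = 0.00603) and Cpt2 (-0.73, adjusted p = 0.00561), the enzymes that load and unload long chains, and Crat (-0.93, adjusted p = 0.0165) fell, 3 of 6. Of 15 other mitochondrial acyl-CoA enzymes 5 fell, among them Mlycd (-0.74), which removes malonyl-CoA, and Acsm1 (-1.01), Acsm5 (-0.59) and Acss1 (-0.56). Of 15 other peroxisomal genes 4 fell, including the reductase Pecr (-1.30) and the acyl-CoA synthetase Slc27a2 (-0.99), and Hao2 (0.96) rose. The biogenesis genes Pex11g (-0.81) and Pex19 (-0.52) fell, and 0 of 8 regulators passed.

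Cell type markers moved beside these and beside the 11.3% of all genes that passed. Of 9 markers of the first proximal tubule segments 3 fell, and they summed to 5624 to 8143 CPM at 24 months and 10700 to 11360 CPM at 15 months in Pt-CrAT. In fl/fl animals the sums were 7467 to 9010 CPM at 24 months and 9887 to 11190 CPM at 15 months. Collecting duct markers summed to 653 to 1249 CPM at 24 months and 363 to 594 CPM at 15 months in Pt-CrAT. Macrophage (2 of 5) and fibroblast (2 of 4) markers rose in Pt-CrAT. Of 3 distal tubule markers 2 fell, with sums of 224.9 to 365 CPM at 24 months and 450 to 513 CPM at 15 months in Pt-CrAT. Also, 1 marker each of the S3 segment (Slc22a7) and of adipocytes (Car3) fell, 1 each of the thick ascending limb (Slc12a1) and of the collecting duct (Aqp2) rose, and the part of cell composition in the members' values was not tested.

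The age change itself was not shown to differ between the genotypes for any member. The test of the difference passed for 0 of 33 members and 0.0% of all genes, of which 2255 had an unadjusted p under 0.05. DESeq2 called 23 of all genes and 0 members. The age change was more negative in Pt-CrAT for 23 of 33 members, 17 of 21 mitochondrial and 6 of 12 peroxisomal. The same held for 7492 of the 15064 genes tested. The median difference was -0.20 over the members and 0.00 over all genes. These signs rest on the 15-month labels that Crat runs against. The smallest p-values were those of Acads (-0.88, SE 0.29, adjusted p = 0.29), Acaa1a (-0.63, SE 0.22, adjusted p = 0.29), Hadha (-0.55, SE 0.24, adjusted p = 0.305) and Etfb (-0.57, SE 0.25, adjusted p = 0.305).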

How the data were processed

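RNA of kidney cortex was read near transcript 3′ ends (QuantSeq 3′ FWD, per the labels' protocols). The authors deposited raw read counts per gene for 16556 genes, and a signal table equal to those counts over DESeq2 size factors, used here only as a check. A deposited file of column totals was not used. Genome build GRCm38, R 3.4.3 and DESeq2 1.18.1 are named per the submitters' processing notes, and no aligner, counter, strand setting or annotation is named: not given in the sources used here. The smallest gene total is 66, so rarely read genes are missing. Of the gene identifiers, 16514 were found in GENCODE M21, the source of gene coordinates and of the GC content of the last 500 transcript bases.

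Counts were fitted with edgeR 4.0.16 in R 4.3.3 (TMM, filterByExpr, robust quasi-likelihood F test), with all 22 libraries in 6 groups, 16 residual degrees of freedom and a biological coefficient of variation of 20.5%. P-values were Benjamini-Hochberg adjusted over all 15064 genes, threshold 0.05. The script was tested on simulated data. DESeq2 1.42.0, limma 3.58.1 (voom), other size factors, no filter, a GC correction (lowess, span 0.3), fits of only the groups compared and left-out libraries were alternatives. The 32 within-group library pairs had chi-square values of 9.43 to 123 per degree of freedom, beyond counting error, and each library counted as its own replicate. Any member may be named, with full statistics for up to 10 per direction past the threshold or, where fewer than 3 passed, the 4 smallest p. Up to 4 companions per list and comparison that passed are named. Some companion results are not reported here. Other members given with full statistics, Acsm3, Hadha and Hadhb among them, and Hao2 were chosen after their values were seen. Members and lists were chosen with earlier results of these data known. The labels name no molecular identifiers, so counts are reads.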

Additional observations from a re-analysis of the deposited data

Results flagged for a closer look

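In 5 of 66 groups of 5 libraries tested, a single library stood far from the others (chance gives about 1 in 20). At 24 months Hadhb was at 55.7 CPM in CrAT24Mchow136, against 42.3 to 43.8 CPM in the other 4. Among the fl/fl libraries of that age, Wt24Mchow154 had Decr1 at 378 CPM (others 322 to 335 CPM), Etfdh at 24.7 CPM (others 15.96 to 18.2 CPM) and Scp2 at 349 CPM (others 433 to 441 CPM). The library Wt24Mchow164 had Acsl1 at 221 CPM (others 127 to 139 CPM).

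The genotype difference varied among the 3 settings, by the edgeR test of the difference itself, for Acads (adjusted p = 0.0200), Acot8 (adjusted p = 0.0200), Acaa1a (adjusted p = 0.0200), Etfb (adjusted p = 0.0298) and Acaa2 (adjusted p = 0.0381). The test passed for 5.07% of all genes. It cannot tell age from the LFD label, and takes the genotypes of the younger chow setting from labels that Crat runs against. All 5 lay higher in every Pt-CrAT library at 12 months and had negative log2 fold changes at 24 months, where the groups overlapped. These values enter the test. Without CrAT12MLFD328 none of the 5 passed (adjusted p = 0.0877 to 0.132), with 6 of all genes passing. Without CrAT12MLFD337 none did either (adjusted p = 0.064 to 0.098), with 2 of all genes passing. Over the 22 fits with a single library left out, Acads, Acot8 and Acaa1a passed in 20 each, Etfb in 16 and Acaa2 in 10.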

How the results depend on the processing

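None of the members past the threshold, nor the 4 of smallest p where fewer than 3 passed, reversed direction under the alternatives run. Where groups do not overlap, leaving out libraries could hardly have reversed it. At 12 months 5 members fell with the GC correction, 0 rose and 0 fell with only the 6 libraries of that age in the fit, and 0 and 0 without CrAT12MLFD328 and Wt12MLFD326. Of all genes 14.65%, 0.00727% and 0.123% passed in these fits, in either direction. DESeq2 called 1 member lower at 24 months, 1 lower with age in fl/fl and 10 among the settings. Of all genes it called 0.0531%, 4.84% and 15.7% in these comparisons, in either direction. Without CrAT24Mchow123 and CrAT24Mchow136, 2 members varied among the settings and 2 fell with age in Pt-CrAT. Of all genes 0.201% and 2.80% passed there, in either direction. With 1 library left out, members rising at 12 months ranged from 0 to 7 and falling from 0 to 9, those varying among settings from 0 to 10, those lower with age in fl/fl from 0 to 1, and in Pt-CrAT those falling from 0 to 8 and rising from 0 to 1. The share of all genes passing in those fits, in either direction, varied too. It ran from 0.344% to 22.8% at 12 months and from 0.013% to 14.3% among settings. With age it ran from 0.0195% to 5.04% in fl/fl and from 2.55% to 11.8% in Pt-CrAT. No paired analysis was possible because the groups share no replicate numbers. Depth was at least 12175804 counts in every library, and the number of animals limits precision.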
